A study of Mus musculus with 18 samples.

Results

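The genes described here are 33 mouse genes whose human counterparts lie near loci associated with atrial fibrillation, with ion channels and the core cardiac transcription factors left out. They were taken by symbol, through the Ensembl base ID, from a table of 56691 gene IDs, and 33 of 33 were found. The table holds messenger RNA counts from both atria, left (LA) and right (RA), of mice that the labels call wildtype controls (WT), Het and KO for Zfhx3, a zinc finger homeobox gene that is itself named in the study as related to atrial fibrillation. The labels list 9 animals, 3 of each genotype, each giving 1 LA and 1 RA sample, and record no treatment. The strain, the age and the allele, including any Cre driver or targeted exon, were not stated in the sources used here, so whether the deletion acts in all cells or in some is unknown. WT, Het and KO below are therefore the labels' words.

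Genome-wide association places a risk variant near a gene without saying which gene it acts on, so the genes of this group share a location near such variants and not a pathway. They fall into 7 groups by the protein's role. Several belong to structures that an atrial muscle cell depends on: caveolae, the small membrane pockets that caveolins build, the Z-disc, which anchors thin filaments, and the nuclear envelope and its links to the cytoskeleton. Others are receptors for growth or guidance signals, parts of the ubiquitin system, or transcription factors such as Prrx1, a homeobox factor of mesenchymal cells, and Myocd, the muscle partner of serum response factor.

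Library totals ran from 18000583 to 33483085 counts. The columns of WT RA replicates 1 and 2 are identical for every gene and were counted as 1 library, here called WT RA replicate 1, which leaves 17 libraries with n = 2 in WT RA and n = 3 in each other group. Zfhx3 was counted at 13.9 to 20.4 CPM (counts relative to library size, with TMM scaling) in all 17 libraries, so its total count does not separate the genotypes. Xist ran from 0.812 to 1.1 CPM in WT and from 576 to 706 CPM in Het. In KO, replicate 1 had 697 CPM for the LA library and 767 CPM for the RA library, and the other KO libraries were at 0.403 to 0.948 CPM. Genotype and sex therefore cannot be told apart in Het against WT. Sex also differs in part between KO and Het and between KO and WT. The defining markers of the labelled tissue were present, with none of 12 cardiomyocyte markers at 0 in any library. WT LA replicate 3 stood apart in the markers of other cells: its 10 fibroblast markers summed to 964 CPM, against 1980 to 3380 CPM in the other LA libraries, and its 10 macrophage markers to 94.4 CPM, against 386 to 519 CPM in the other LA libraries. In bulk tissue, fewer cells of a type and less RNA per cell cannot be told apart.

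The genes ranged widely in level. Cav1, the caveolin that forms the caveola coat, had the highest level per length, at 128 CPM per kb of merged exons over all libraries. Nebl (nebulette, a thin filament protein of the heart's Z-disc) followed at 53.3 CPM per kb, then the actin-associated Z-disc protein Synpo2l at 53.2, the leucine-rich repeat Z-disc protein Lrrc10 at 45.9 and the kinase anchor Akap6 at 31.9. The lowest levels were those of Myoz1 (0.148 CPM per kb), a calcineurin-binding Z-disc protein of fast muscle, the transporter-family gene Slc35f1 (0.173) and the ubiquitin ligase Neurl1a (0.232). Of the 33, 21 had a mean above 50 CPM, which 18.6% of the 18018 genes that passed the low-count filter reached, and 3 were under 2 CPM. All 33 passed that filter over the 17 libraries, but Myoz1, with 0 to 17 counts a library, was not tested in the genotype comparisons of RA.

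**Figure D1:**
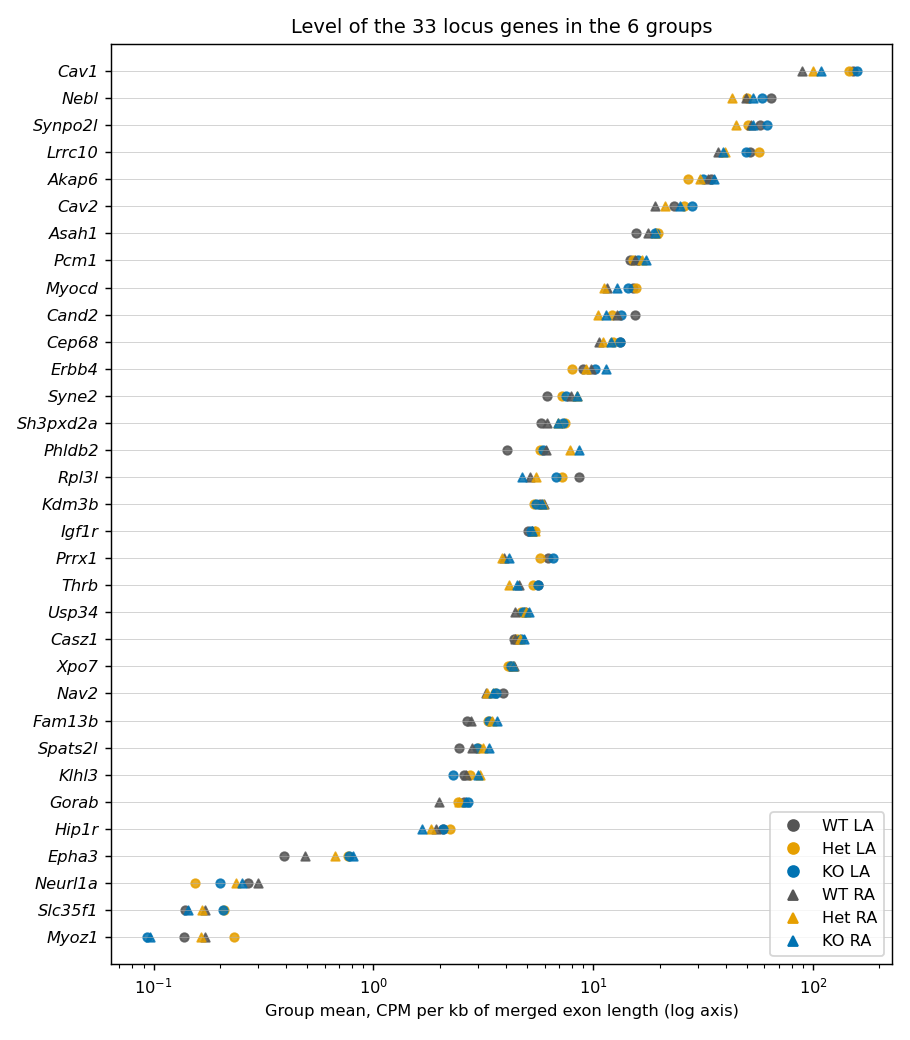
Mean level of each of the 33 genes in the 6 genotype-by-atrium groups, in CPM per kb of merged exon length on a log axis, with circles for LA, triangles for RA and colours for genotype. Cav1 has the highest mean over all libraries, 128 CPM per kb, and Myoz1 the lowest, 0.148, and for most genes the 6 symbols nearly coincide.

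Across the 6 groups, the ratio of the highest to the lowest group mean was 1.07 for both the nuclear export receptor Xpo7 and the insulin-like growth factor receptor Igf1r. It was 1.11 for the histone demethylase Kdm3b and for the zinc finger factor Casz1. Larger ratios were those of Phldb2 (2.14), Epha3 (2.06), Rpl3l (1.8), Cav1 (1.77) and Prrx1 (1.7), next to Myoz1 (2.47) and Neurl1a (1.93), which rest on few counts.

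There are 6 pairs among the 33 genes that lie close together on a chromosome (GENCODE M21, GRCm38), and partners were often expressed at unlike levels. On chromosome 14, Myoz1 (20649107 to 20656540, minus strand) ends 2406 bases from Synpo2l (20658946 to 20668354, minus strand), which was 360-fold higher per kb. On chromosome 19, 733 bases separate Neurl1a (47178820 to 47259441, plus strand) from Sh3pxd2a (47260174 to 47464401, minus strand), a scaffold of podosomes that was 29.3-fold higher. Cav2, the partner of Cav1 in the caveolin complex, lies on chromosome 6 (17281185 to 17289115, plus strand) 17220 bases before Cav1 (17306335 to 17341452, plus strand), at 24 against 128 CPM per kb. The centriolar satellite protein Pcm1 and the acid ceramidase Asah1 were close in level, at 15.9 and 18.4 CPM per kb. Prrx1 was 2.06-fold higher than the golgin-interacting protein Gorab, and Kdm3b 1.76-fold higher than Fam13b.

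The sequences before the starts of 4 genes are shown because 2 of them, Phldb2 and Epha3, were higher in both mutant groups, and because the neighbours Cav1 and Cav2 are compared below. Phldb2 encodes a membrane-binding protein of the cell cortex that helps to capture microtubule ends, and Epha3 a receptor tyrosine kinase for ephrins. Each line gives the 250 bases before a RefSeq start, 5′ to 3′ on the gene's strand, in GRCm38.p6. The capitals mark matches on either strand to the GC box (letters GGGCGG), to the GATA motif of blood and heart factors (letters AGATAA) or to the T-box motif (letters AGGTGT). The windows are Phldb2 at chr16:45844379-45844628 (minus strand), which lies inside the span of the GENCODE gene, Epha3 at chr16:63864176-63864425 (minus strand), Cav1 at chr6:17306085-17306334 (plus strand) and Cav2 at chr6:17280935-17281184 (plus strand).
Phldb2: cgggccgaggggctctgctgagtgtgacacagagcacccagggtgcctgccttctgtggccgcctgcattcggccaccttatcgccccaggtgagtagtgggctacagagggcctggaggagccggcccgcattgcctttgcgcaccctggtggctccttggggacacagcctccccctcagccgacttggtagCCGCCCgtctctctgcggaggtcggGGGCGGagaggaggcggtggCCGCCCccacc
Epha3: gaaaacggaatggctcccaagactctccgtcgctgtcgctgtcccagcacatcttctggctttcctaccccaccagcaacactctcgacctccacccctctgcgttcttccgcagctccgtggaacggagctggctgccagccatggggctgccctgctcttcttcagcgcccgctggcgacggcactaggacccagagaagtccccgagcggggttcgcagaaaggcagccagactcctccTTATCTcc
Cav1: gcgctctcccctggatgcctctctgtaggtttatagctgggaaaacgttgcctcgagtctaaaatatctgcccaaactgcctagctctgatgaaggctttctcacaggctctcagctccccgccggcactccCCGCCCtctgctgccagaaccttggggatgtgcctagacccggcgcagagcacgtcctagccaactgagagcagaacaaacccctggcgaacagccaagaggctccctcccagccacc
Cav2: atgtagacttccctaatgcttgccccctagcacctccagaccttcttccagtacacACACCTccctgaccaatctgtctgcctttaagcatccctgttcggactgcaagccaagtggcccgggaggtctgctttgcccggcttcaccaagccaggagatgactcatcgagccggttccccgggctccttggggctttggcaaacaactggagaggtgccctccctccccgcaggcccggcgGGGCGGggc
The Phldb2 window has 70.0% G and C and 3 GC boxes, while the Epha3 window has 62.8% G and C and 1 GATA match. The Cav1 window shown has 1 GC box, and Cav2 has 1 GC box and 1 T-box match. A second Cav1 window, at chr6:17307390-17307639 (60.8% G and C), is not shown and had no match. GC boxes stood in 32.74% of the 32851 windows of this length, GATA matches in 9.99% and T-box matches in 11.83%. RefSeq windows were matched for 24 of the 33 genes, 33 windows in all, of which 13 held a GC box, 5 a GATA match and 3 a T-box match. TAATTA, a core of homeodomain sites, was found in 2 of the 33 windows and in 4.84% of all. A match describes the letters and is not a measured binding site.

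In the left atrium, KO mice had more RNA of 3 genes of the membrane and cortex, Phldb2, Sh3pxd2a and Cav2, and of the receptor Epha3. These 4 of 33 genes (12.1%) were called higher than in WT and none lower, at an edgeR adjusted p under 0.05, where 7.81% of all 16974 genes tested were called, 3.42% higher and 4.39% lower. Phldb2 stood at 36.7, 28.7 and 26.4 CPM in the WT LA replicates and at 43.5, 47.1 and 43.5 CPM in KO. All KO libraries lay above all WT libraries, a log2 difference of 0.54 ± 0.12 (SE, edgeR adjusted p = 0.0253). Epha3, expressed at a low level, had 3.52, 2.95 and 3.7 CPM in WT LA and 6.7, 5.02 and 8.34 CPM in KO LA. Its groups did not overlap, and its log2 difference of 0.98 ± 0.22 (edgeR adjusted p = 0.0281) exceeded that of every other of the 33 genes in this comparison.

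Sh3pxd2a rose from 67.8, 70.5 and 63.3 CPM in WT LA to 92.9, 77.6 and 82.9 CPM in KO LA. The lowest KO library was above the highest WT library, with a log2 difference of 0.32 ± 0.08 and an edgeR adjusted p of 0.031. Cav2 had 84.9, 72.8 and 74.8 CPM in WT LA and 93, 96.3 and 91.6 CPM in KO LA, again without overlap, with a log2 difference of 0.26 ± 0.07 (edgeR adjusted p = 0.044). The other caveolin, Cav1, was at 519 ± 60.5 CPM (SD, n = 3) in WT LA and 545 ± 20.3 CPM in KO LA and was not called (0.06 ± 0.09 log2, edgeR adjusted p = 0.698). Fam13b had a log2 difference of 0.33 ± 0.11 (edgeR adjusted p = 0.0794) and Spats2l of 0.26 ± 0.08 (edgeR adjusted p = 0.0701). Neither passed the test, although their KO libraries lay above all WT libraries. In all, 9 of the 33 genes had groups that did not overlap, where 30% of all genes did.

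The calls in KO LA depend on which libraries and terms enter. Without WT LA replicate 3, none of the 4 genes was called, with edgeR adjusted p of 0.0606 for Phldb2, 0.0525 for Epha3, 0.0789 for Sh3pxd2a and 0.105 for Cav2. The log2 differences were then 0.45, 1.05, 0.29 and 0.25. None was called either without WT LA replicate 2, KO LA replicate 1 or KO LA replicate 3, while 6 genes were called without WT LA replicate 1. With Xist as a covariate none of the 4 was called (edgeR adjusted p from 0.053 for Phldb2 to 0.088 for Cav2), and with only KO and WT in the fit Sh3pxd2a and Cav2 were not. The fibroblast marker list had a median log2 difference of 0.65 in this comparison with 1 of 10 markers called higher, the macrophage list a median of 0.41 with none called, and the cardiomyocyte list a median of -0.18 with 3 of 12 called lower. Their part in the higher levels of Phldb2, Epha3, Sh3pxd2a and Cav2 was not tested.

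**Figure D2:**
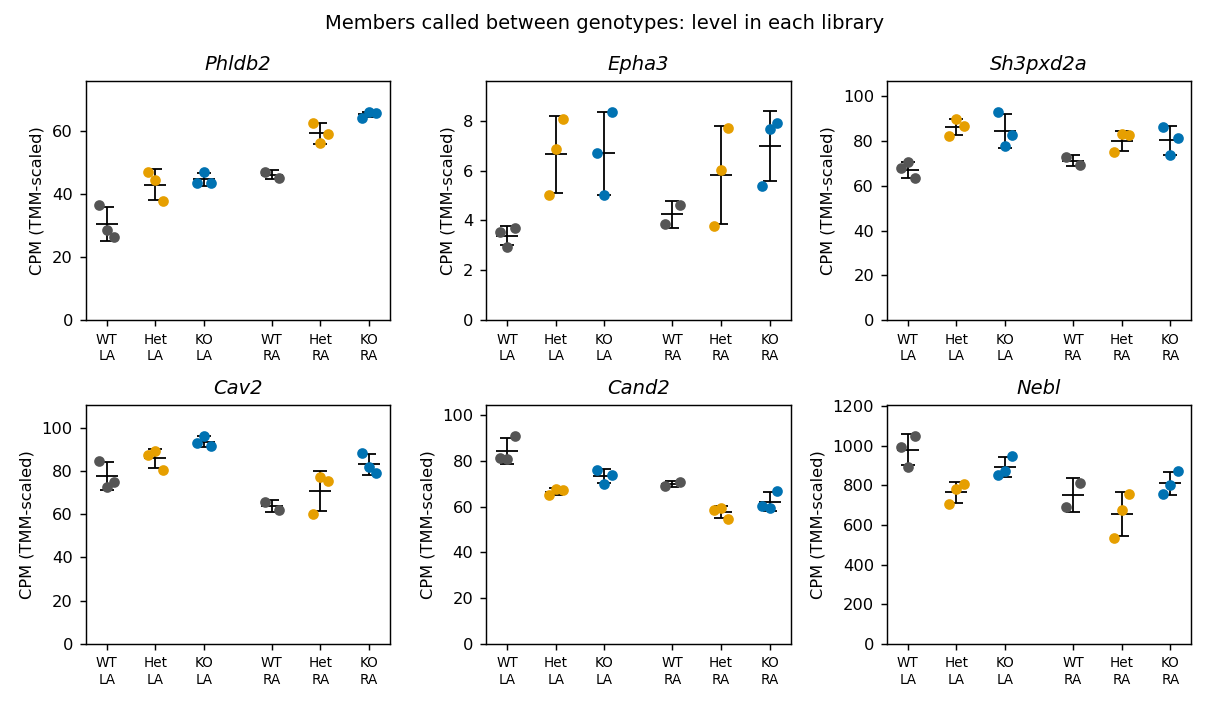
Level in CPM (TMM-scaled) of the 6 genes called between genotypes, with 1 point a library, colours for genotype, and bars for the group mean and SD, all from 0. Phldb2 is higher in Het and KO than in WT in both atria, with KO RA at 64.4 to 66.1 CPM and WT RA at 45.2 to 47.2 CPM, and Cand2 has its lowest group mean of each atrium in Het.

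In Het left atria Phldb2, Epha3 and Sh3pxd2a were higher than in WT, and Cand2 and Nebl were lower. These 5 of 33 genes (15.2%) were called, beside 9.4% of all genes tested, 4.02% higher and 5.38% lower. The groups of 9 genes did not overlap, where those of 32.3% of all genes did not. Phldb2 was at 47, 44.5 and 37.7 CPM in Het LA, just clear of the highest WT library at 36.7 CPM, with a log2 difference of 0.48 ± 0.12 (edgeR adjusted p = 0.0301). Epha3 was at 5.01, 6.87 and 8.06 CPM, all above WT, at 0.96 ± 0.23 log2 (edgeR adjusted p = 0.0255). Sh3pxd2a was at 82.4, 89.7 and 86.9 CPM, with a log2 difference of 0.35 ± 0.08 (edgeR adjusted p = 0.0202). Het and KO were set against the same WT libraries, so these values are not separate observations of the WT level.

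The lower genes in Het LA were Cand2, a muscle-enriched exchange factor of cullin ubiquitin ligases, and Nebl. Cand2 fell from 81.2, 81.1 and 91 CPM in WT LA to 65.1, 67.7 and 67.1 CPM in Het LA. The groups were well apart, with a log2 difference of -0.35 ± 0.07 (edgeR adjusted p = 0.0127), and Cand2 was called in 11 of 13 alternative analyses. In KO LA it was at 76.1, 70.1 and 73.9 CPM, below every WT library but not called (-0.21 ± 0.07, edgeR adjusted p = 0.0745). On chromosome 6, 53 exon bases of Cand2 overlap Rpl32 on the other strand, and no source states a stranded count. Rpl32 was at 107 to 129 CPM over the 17 libraries, and its part in the Cand2 count was not tested.

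Nebl fell from 995, 894 and 1050 CPM in WT LA to 705, 781 and 807 CPM in Het LA, without overlap, by 0.37 on the log2 scale (SE 0.09, edgeR adjusted p = 0.0272). KO LA lay between, at 893 ± 51.2 CPM (n = 3, log2 difference -0.14 ± 0.09, edgeR adjusted p = 0.343). The next genes in Het LA missed the threshold: Spats2l at 0.28 ± 0.08 log2 (edgeR adjusted p = 0.0506) and Akap6 at -0.36 ± 0.11 (edgeR adjusted p = 0.0531). Without WT LA replicate 3 the calls in Het LA were Cand2 and Epha3 alone, with log2 differences of -0.28 and 1.03, and with Xist as a covariate none was called. Xist was high in every Het library and low in every WT library. The covariate therefore nearly coincides with these genotypes, and that fit cannot separate sex from genotype here. Beside these genes, Het LA had 3 of 12 cardiomyocyte markers called lower (list median -0.27), 2 of 10 fibroblast markers called higher (0.71) and 1 of 9 endothelial markers called higher (0.34), whose part was not tested.

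In the right atrium Phldb2 was the gene called. It was at 47.2 and 45.2 CPM in the WT RA libraries and at 64.4, 66.1 and 65.7 CPM in KO RA. The KO libraries lay close together and well above WT, with a log2 difference of 0.51 ± 0.08 (edgeR adjusted p = 0.0162). That is 1 of 32 genes tested (3.12%), where 0.523% of all genes were called, 0.238% higher and 0.285% lower. In Het RA, Phldb2 was at 62.8, 56.2 and 59.1 CPM, also above both WT libraries, at 0.37 ± 0.08 log2 with an edgeR adjusted p of 0.0544. No gene of the 33 was called in Het RA with edgeR, where 0.57% of all genes were (0.256% higher, 0.314% lower). Of the 32 tested, 4 had an unadjusted p under 0.05, where 14.3% of all genes did. DESeq2 called 1, Phldb2. The Het RA libraries of 12 genes lay apart from WT RA, where 33.2% of all genes did. The KO RA call of Phldb2 did not survive the loss of either WT library (edgeR adjusted p = 0.165 without replicate 1 and 0.304 without replicate 3) or of KO RA replicate 1 or 3, while its log2 difference stayed between 0.48 and 0.54 over all alternatives run.

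In KO RA several other genes had higher values that did not pass the test. Of these, Cav2 was at 65.7 and 61.8 CPM in WT RA and at 88.6, 81.8 and 79 CPM in KO RA. The groups did not overlap (0.39 ± 0.10 log2, edgeR adjusted p = 0.113). Cav1 was at 321 and 293 CPM in WT RA and at 376, 368 and 377 CPM in KO RA, also apart (0.29 ± 0.07, edgeR adjusted p = 0.0977). Fam13b had 0.40 ± 0.10 (edgeR adjusted p = 0.0977). Hip1r of the membrane group had a lower value, at -0.20 ± 0.12 (edgeR adjusted p = 0.466). Among the other roles, the Golgi gene Gorab had 0.41 ± 0.15 (edgeR adjusted p = 0.218). The receptor Epha3 was at 3.86 and 4.61 CPM in WT RA and 5.38, 7.68 and 7.9 CPM in KO RA, at 0.74 ± 0.29 (edgeR adjusted p = 0.271). With the filter on low counts removed, Cav1, Cav2, Fam13b and Epha3 were called besides Phldb2, and DESeq2 called Cav1, Cav2 and Fam13b with it. Without the filter the log2 differences of Cav1, Cav2, Fam13b and Epha3 were 0.31, 0.41, 0.41 and 0.75, close to those above. The share of all genes called in these settings is not given here. The KO RA libraries of 17 of the 32 genes did not overlap with the WT libraries, of which 3 were lower, where 37% of all genes did not overlap in this comparison of 3 with 2 libraries.

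By role, the membrane, caveola and cortex group of 8 genes holds Cav1, Cav2, Phldb2, Hip1r, Sh3pxd2a, Fam13b, Spats2l and the microtubule-associated Nav2. The group's median log2 difference was 0.26 in KO LA, 0.28 in KO RA, 0.21 in Het LA and 0.17 in Het RA. The median over all genes tested was 0.00 in the first 3 and 0.01 in Het RA. The Z-disc and contractile group of 5 holds Synpo2l, Myoz1, Nebl, Lrrc10 and Rpl3l, the last a muscle ribosomal protein and not a Z-disc one. The group's medians were -0.14 in KO LA and -0.20 in Het LA, and the 4 tested in RA had 0.07 in KO and -0.04 in Het. The 6 genes of the nuclear envelope, centrosome, Golgi and scaffold group had no call between genotypes, with medians from -0.08 in Het LA to 0.14 in KO RA. Over all 33 genes the median was 0.03 in KO LA and 0.02 in Het LA, and over the 32 tested in RA it was 0.12 in KO, with 25 positive, and 0.08 in Het, with 20 positive. Over all genes tested these medians were 0.00 to 0.01.

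Between KO and Het, none of the 33 genes was called in LA or in RA with edgeR or DESeq2, and edgeR called none of all genes (0% in each atrium). In each atrium 5 genes had an unadjusted p under 0.05, where 4.54% of all genes did in LA and 6.26% in RA. The groups of 7 genes did not overlap in LA, where 12% of all genes did not, and of 8 in RA, where 10.4% did not. In each of these KO was higher. Xist was high in all Het libraries and low in KO replicates 2 and 3, so sex also differs in part between these groups. Its part in the values below was not tested. Erbb4, the receptor for neuregulins, was at 91.9, 100 and 103 CPM in Het LA and 121, 115 and 142 CPM in KO LA. Its groups did not overlap, with a log2 difference of 0.36 ± 0.11 in LA (edgeR adjusted p = 0.974) and 0.30 ± 0.11 in RA (edgeR adjusted p = 0.778). With the filter on low counts removed, edgeR called Erbb4 in LA (adjusted p = 0.00354) and RA (0.0348), Synpo2l in LA (0.0443) and Nebl in RA (0.0168). Their log2 differences were then 0.36, 0.29, 0.29 and 0.31 in that order, nearly as with the filter. The 0% of all genes above belongs to the filtered fit, and the share without the filter is not given here. As filtered, Synpo2l had 0.29 ± 0.12 and 0.26 ± 0.10, Nebl 0.23 ± 0.09 and 0.31 ± 0.12, and Akap6 0.24 ± 0.11 and 0.21 ± 0.09, with edgeR adjusted p from 0.778 to 0.974. For Phldb2 the difference was 0.05 ± 0.12 in LA and 0.14 ± 0.07 in RA, and for Epha3 0.02 ± 0.21 and 0.26 ± 0.24, which a miss of the threshold does not show to be equal. The difference between the atria in the mutant effect was tested as an interaction. None of the 33 genes, and none of all genes (0%), was called for KO or for Het with edgeR, and DESeq2 called none of the 33. None of the 33 had an unadjusted p under 0.05, where 3.95% of all genes did for KO and 4.36% for Het. Gorab had the smallest, 0.0536 in Het.

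**Figure D3:**
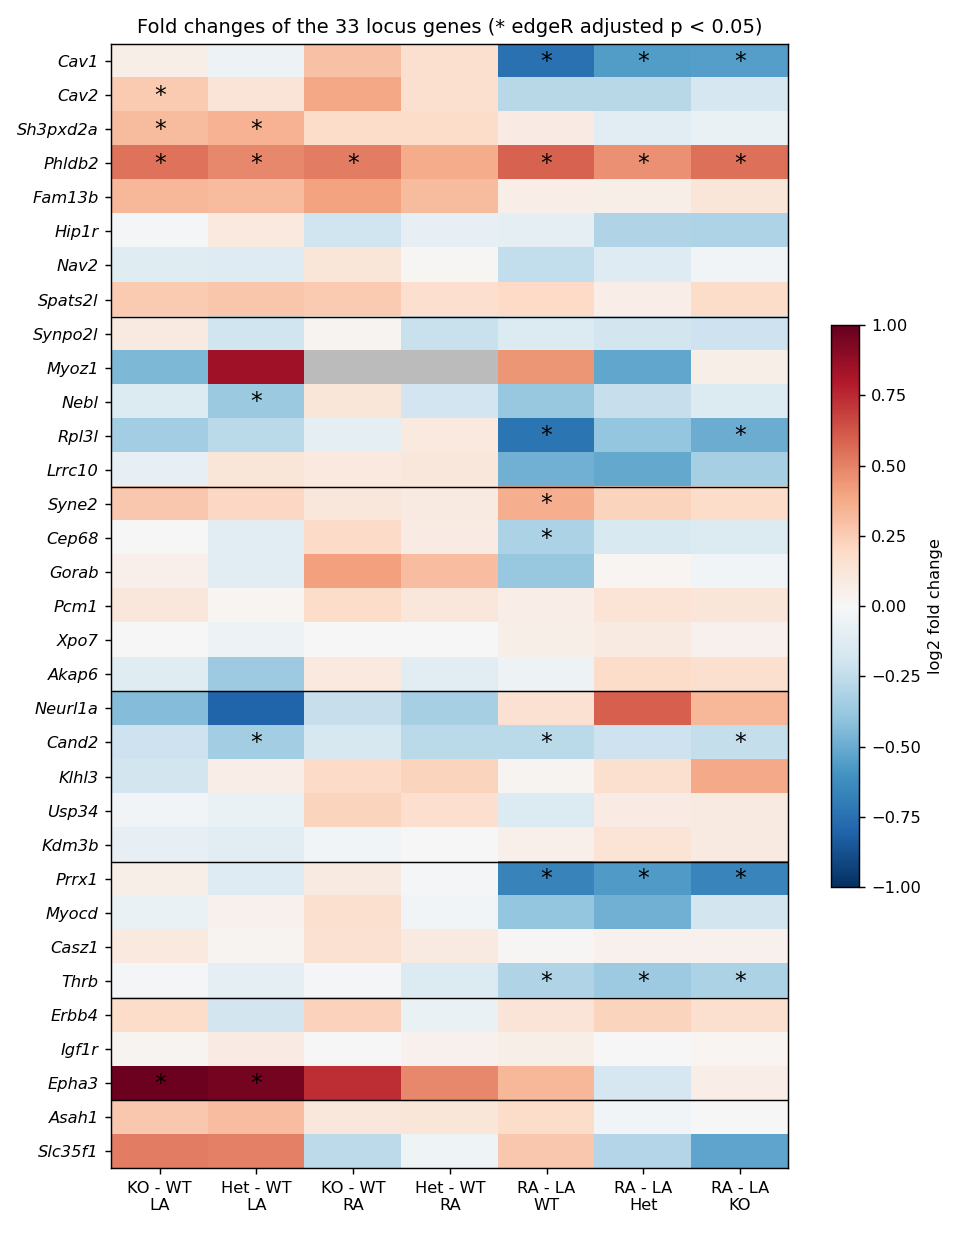
Log2 fold changes of the 33 genes in 4 genotype comparisons and in RA minus LA within each genotype, in rows by role group with lines between groups, on a colour scale from -1 to 1. Stars mark an edgeR adjusted p under 0.05 and grey cells were not tested. Phldb2 has 6 stars in the 7 columns, and Cav1, Prrx1 and Thrb have 3 each, all between the atria.

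Between the atria, the calls were led by lower Cav1 and Prrx1 in RA and higher Phldb2. In WT mice 8 of 33 genes (24.2%) were called between RA and LA, 6 lower and 2 higher in RA, beside 11.9% of all 18018 genes tested, 6.56% lower and 5.31% higher. In Het mice 4 were called (12.1%), 3 lower and 1 higher, beside 7.69% of all genes, 4.37% lower and 3.32% higher. In KO mice 6 were called (18.2%), 5 lower and 1 higher, beside 8.35% of all genes, 4.68% lower and 3.66% higher. The atria did not overlap in 18 genes in WT, 12 in Het and 10 in KO, where they did not in 41.6, 24.8 and 26.4% of all genes. Cav1, Prrx1, Thrb and Phldb2 were called in all 3 genotypes, Phldb2 higher in RA and the others lower. The 3 comparisons use different animals, and no difference in size between genotypes was called by the interaction tests above.

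Cav1 stood at 570, 452 and 535 CPM in WT LA and at 321 and 293 CPM in WT RA. Het had 492, 518 and 503 CPM in LA and 339, 344 and 346 CPM in RA, and KO had 523, 549 and 564 CPM in LA and 376, 368 and 377 CPM in RA. Every RA library of the study was below every LA library. The log2 difference of RA minus LA was -0.75 ± 0.08 in WT (edgeR adjusted p = 1.74e-05), -0.56 ± 0.07 in Het (8.42e-05) and -0.55 ± 0.07 in KO (0.0001). Its neighbour Cav2 had differences of -0.28 ± 0.10, -0.28 ± 0.08 and -0.17 ± 0.08 and was not called (edgeR adjusted p = 0.0676, 0.0556 and 0.276). With the animal as a block, Cav2 was called in Het (edgeR adjusted p = 0.00986 or 0.0123, for the shared WT RA library as animal 1 or 2) and, in the first version alone, in WT (0.0162). Endothelial cells are rich in caveolae, and of the 9 endothelial markers 2, 1 and 4 were called higher in RA and none lower in WT, Het and KO. Of the 12 cardiomyocyte markers 7, 6 and 7 were called lower and none higher, and their part in the Cav1 difference was not tested.

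Prrx1 was at 70.3, 60.5 and 75.9 CPM in WT LA and 38.1 and 48.6 CPM in WT RA. In Het it was at 59.9, 66.9 and 63.1 CPM in LA and 39.8, 45 and 43 CPM in RA, and in KO at 72.9, 67.2 and 76.8 CPM in LA and 45.3, 45.7 and 46.2 CPM in RA. Again no RA library reached the lowest LA library. The log2 differences were -0.67 ± 0.11, -0.57 ± 0.09 and -0.66 ± 0.09 (edgeR adjusted p = 0.000508, 0.000584 and 0.000128 in WT, Het and KO). Of the 10 fibroblast markers none was called lower in RA in any genotype and 2 were called higher in WT, and the list's medians were 0.16, -0.09 and -0.11. The part of fibroblast content in the Prrx1 difference was not tested. Between genotypes Prrx1 was not called, at 0.06 ± 0.09 in KO LA (edgeR adjusted p = 0.699).

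Phldb2 and Cand2 were called both between genotypes and between atria. Phldb2 was higher in the mutants and higher in RA, and its per-library values above give RA minus LA differences of 0.59 ± 0.11 in WT, 0.46 ± 0.10 in Het and 0.55 ± 0.10 in KO (edgeR adjusted p = 0.00208, 0.00612 and 0.0013). Group means in CPM ran in the order WT LA (30.6 ± 5.42), Het LA (43.1 ± 4.8), KO LA (44.7 ± 2.1), WT RA (46.2 ± 1.42), Het RA (59.3 ± 3.33) and KO RA (65.4 ± 0.919). In that order Het LA, KO LA and WT RA lie within each other's spread, and the gaps before and after them exceed it.

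Thrb, a thyroid hormone receptor and so a transcription factor that ligand controls, was at 39, 44 and 41.8 CPM in WT LA and 34.1 and 33.8 CPM in WT RA. In Het it was at 40.5, 37.2 and 40.2 CPM in LA and 33.3, 27 and 31.6 CPM in RA, and in KO at 42.4, 40.4 and 41.8 CPM in LA and 31.6, 34.7 and 33.6 CPM in RA. The atria did not overlap in any genotype. The log2 differences of -0.30 ± 0.09, -0.36 ± 0.08 and -0.32 ± 0.08 were called (edgeR adjusted p = 0.0326, 0.00584 and 0.012). Between genotypes Thrb was not called, at 41.6 ± 2.49 CPM in WT LA and 41.6 ± 1.03 CPM in KO LA (n = 3 each).

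Cand2, lower in Het LA, was with Rpl3l among the genes called lower in RA in WT and KO. Rpl3l, the muscle form of a ribosomal protein, was at 12, 14.3 and 15.9 CPM in WT LA and at 8.19 and 8.71 CPM in WT RA, and in KO at 10.6, 11.4 and 11.3 CPM in LA and 7.93, 8.33 and 7.22 CPM in RA. The atria were apart in both, with log2 differences of -0.73 ± 0.16 (edgeR adjusted p = 0.00699) and -0.50 ± 0.14 (0.0366). In Het, with 11.5, 9.71 and 14.3 CPM in LA and 8.65, 7.67 and 10.6 CPM in RA, the atria overlapped and the difference of -0.39 ± 0.14 was not called (edgeR adjusted p = 0.116). It was called with the animal as a block (edgeR adjusted p = 0.00863 or 0.00671, for the shared WT RA library as animal 1 or 2). Cand2 was at 68.9 and 71 CPM in WT RA and at 60.1, 59.5 and 67 CPM in KO RA, below the LA values given above, by -0.27 ± 0.07 (edgeR adjusted p = 0.022) and -0.24 ± 0.06 (0.0273). In Het RA it was at 58.6, 59.6 and 54.8 CPM, below all Het LA libraries, and at -0.21 ± 0.06 missed the threshold (edgeR adjusted p = 0.0582), which it passed with the animal block (0.0175 or 0.0176).

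Cep68 and Syne2 were called in WT. Cep68, a protein of the link between centrosomes, was at 75.4, 78.7 and 78 CPM in WT LA and 63.4 and 60.7 CPM in WT RA, a clear gap (log2 difference -0.32 ± 0.07, edgeR adjusted p = 0.00654). Het had 74.4, 71.5 and 71 CPM in LA and 62.4, 64 and 69.5 CPM in RA, also without overlap but not called (-0.15 ± 0.06, edgeR adjusted p = 0.184). In KO the atria overlapped, with 73.5, 79 and 80.4 CPM in LA and 75.3, 66 and 69.7 CPM in RA (-0.14 ± 0.06, edgeR adjusted p = 0.199). Syne2, or nesprin-2, which ties the nuclear envelope to the cytoskeleton, was at 190, 154 and 151 CPM in WT LA and 210 and 212 CPM in WT RA, higher in RA by 0.36 ± 0.10 log2 (edgeR adjusted p = 0.0335). In Het and KO the differences were 0.22 ± 0.09 and 0.18 ± 0.09 (edgeR adjusted p = 0.198 and 0.32). With the animal block, Syne2 was called in Het in both versions (0.0299 and 0.0123) and in KO in the second (0.031). Neither gene's atrial difference was shown to change with genotype, since no interaction was called.

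**Figure D4:**
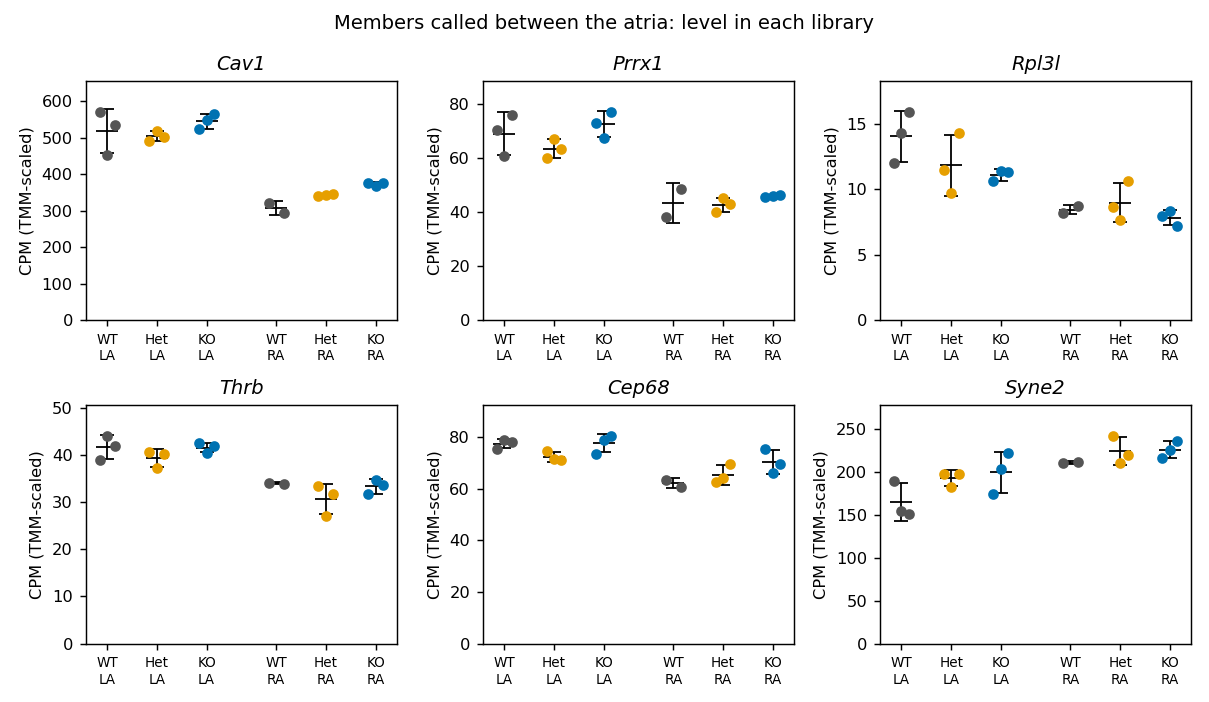
Level in CPM (TMM-scaled) of 6 genes called between the atria, with 1 point a library, colours for genotype, and bars for the group mean and SD, all from 0. Cav1 and Prrx1 are lower in every RA library than in every LA library, with Cav1 at 293 to 377 CPM in RA and 452 to 570 CPM in LA.

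LA and RA of 1 animal can be compared directly in 7 animals with a known pair. In these, 18 of the 33 genes moved in 1 direction in all 7 animals, where 24.2% of all genes did. Lower in RA were 10 genes, namely Prrx1, Cav1, Cav2, Synpo2l, Cand2, Nebl, Rpl3l, Myocd, Thrb and the clathrin adaptor Hip1r. Higher were 8, namely Phldb2, Neurl1a, Syne2, Pcm1, Xpo7, Kdm3b, Erbb4 and Klhl3, a substrate adaptor of cullin ligases. A fit with the animal as a block called more genes: 15 in WT with the shared WT RA library taken as animal 1 and 12 with it as animal 2, 13 in Het and 10 in KO under either choice. The share of all genes called with the block is not given here, so the gain is not shown to be particular to the 33 genes. Beyond the calls without the block, both versions called lower in RA Nebl and Myocd in WT and Het, Nav2 in WT, Cav2, Cand2 and Rpl3l in Het, and Synpo2l and Hip1r in Het and KO. Called higher in both versions were Asah1 in WT, Syne2 and Erbb4 in Het and Klhl3 in KO. Cav2, Synpo2l and Spats2l in WT, Myocd in KO and Syne2 in KO were called in 1 version.

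The RA calls in WT rest on 2 libraries. Without WT RA replicate 1, Cav1, Prrx1 and Phldb2 were called, and without WT RA replicate 3 these 3 and Rpl3l. Without WT LA replicate 3 there were 5 calls, which add Cep68 and Rpl3l, with log2 differences of -0.74 for Cav1 and -0.60 for Prrx1. When library totals replaced TMM scaling, the median over all genes moved to 0.18 in RA against LA in WT, and Cav1, Prrx1 and Phldb2 were still called, while Cand2, Cep68 and Thrb were not. The same scaling moved the median over all genes to 0.18 in KO LA and 0.24 in Het LA, and 11 genes were then called higher and none lower in each, so the direction of small differences is relative to the scaling.

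Called in none of the 11 comparisons were 21 of the genes. Among them Lrrc10 was variable among replicates, from 51.6 to 102 CPM in KO LA alone, and its log2 differences carry an SE of 0.25 to 0.40. Casz1 (47.9 to 61.6 CPM), Igf1r (77.5 to 97.7 CPM), Xpo7 (74.5 to 87.4 CPM) and Kdm3b (74.1 to 84.7 CPM) were even over all 17 libraries. Usp34, a deubiquitinase, ran from 79.1 to 102 CPM, Pcm1 from 98 to 138 CPM and the microtubule-associated Nav2 from 99.7 to 136 CPM. Asah1, not called, had log2 differences of 0.27 ± 0.10 in KO LA (edgeR adjusted p = 0.109) and 0.31 ± 0.10 in Het LA (0.0665). Neurl1a, at 0.975 to 2.51 CPM, had -0.80 ± 0.27 in Het LA (edgeR adjusted p = 0.0807), and for Slc35f1, at 0.324 to 1.33 CPM, no difference was detectable at this depth. Gorab (5.3 to 8.32 CPM), Klhl3 (12.8 to 27.5 CPM) and Hip1r (11.6 to 17.2 CPM) were the weakest of the rest.

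The partners of these genes give the setting. Of 11 caveola components, which include Cav1 and Cav2, 5 were called lower in RA in WT, 4 in Het and 4 in KO, and none higher, with medians of -0.42, -0.44 and -0.36. Of all genes, 6.56% were called lower in WT, 4.37% in Het and 4.68% in KO. Muscle caveolin Cav3 had -0.60 ± 0.12 in WT and the membrane-bending protein Pacsin3 -0.43 ± 0.10 (edgeR adjusted p = 0.00326 and 0.00878). In KO LA, Cav2 was joined by the caveola coat protein Cavin2 (0.45 ± 0.09, edgeR adjusted p = 0.0178) and the caveola neck protein Ehd2 (0.38 ± 0.09, 0.0328), so 3 of 11 were called higher and none lower, with a list median of 0.06, where 7.81% of all genes were called. In Het LA 2 were higher and Pacsin3 was lower (-0.37 ± 0.09, edgeR adjusted p = 0.0284), with a median of -0.05, where 9.4% of all genes were called. In RA edgeR called none in KO or Het, where 0.523% and 0.57% of all genes were called. Of the 11, 5 had an unadjusted p under 0.05 in KO RA and 4 in Het RA, where 14.6% and 14.3% of all genes did. DESeq2 called 3 in KO RA and 1 in Het RA. Of 18 Z-disc genes, which include Nebl, 4 were called lower and 1 higher in RA in WT, where 11.9% of all genes were called. Among the lower was Myoz2 at -0.92 ± 0.16 (edgeR adjusted p = 0.00139), and the higher was Pdlim3 at 0.53 ± 0.15 (0.0319). In KO LA the Z-disc cap protein Tcap was lower at -0.96 ± 0.17 (edgeR adjusted p = 0.016) and Synpo2 at -0.30 ± 0.07 (0.0282). These were 2 of 18, where 7.81% of all genes were called. In KO RA 1 of 17 tested was called, Pdlim3, which was higher at 0.56 ± 0.08 (edgeR adjusted p = 0.0155), where 0.523% of all genes were called.

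Around Thrb, 13 genes of thyroid hormone action were tested. The receptor partner Rxrg was called lower in RA in all 3 genotypes, with log2 differences of -0.44 ± 0.09, -0.26 ± 0.08 and -0.39 ± 0.08 in WT, Het and KO (edgeR adjusted p = 0.00282, 0.0432 and 0.00277). Around Igf1r and Erbb4, which were not called themselves, 3 of 20 genes were called higher and 1 lower in RA in each genotype. Of all genes, 11.9% were called in WT, 7.69% in Het and 8.35% in KO. The lower gene was Btc in WT and Het and Igf1 in KO. Igfbp3, a binding protein for insulin-like growth factors, had 3.27 ± 0.33 in WT, and in LA it was higher in KO (1.10 ± 0.24, edgeR adjusted p = 0.0325) and Het (1.38 ± 0.24, 0.0151). Of 26 channel and transcription factor genes at atrial fibrillation loci, 2 were called higher and 2 lower in KO LA, where 7.81% of all genes were called. In Het LA 1 was called higher and 4 lower, where 9.4% of all genes were called. Of the 25 tested in RA, 1 was called lower in KO and 1 in Het and none higher, where 0.523% and 0.57% of all genes were called. The 16 genes of the nuclear envelope and centrosome, with Syne2 and Cep68, had no call between genotypes in either atrium by edgeR in KO or Het against WT.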

How the data were processed

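Messenger RNA was measured in 18 samples of left and right atria, in an mRNA-enriched library protocol per the labels. The authors deposited whole-number gene counts, not normalised, with STAR 2.7.9a, DESeq2 1.30.1 and the mm10 build listed per the submitters' processing notes. No source used here states the annotation release, counting rule or strand. Of 56691 gene IDs, 52073 matched GENCODE M21 by base ID but 35 by version, so M21 coordinates and merged exon lengths may differ from those counted.

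Each comparison was fitted on all genes with edgeR 4.0.16 in R 4.3.3 by robust quasi-likelihood F tests, after TMM scaling and filterByExpr with a count minimum of 10. A gene is called where its Benjamini-Hochberg adjusted p is under 0.05. Genotypes were compared with all libraries of 1 atrium, and the atria and interactions with all 17 libraries. Printed CPM values carry TMM scaling over the 17 libraries, so they differ slightly from the scaling of a fit within 1 atrium. ± gives the SD for levels and the SE for log2 differences. The design assumed 9 libraries in each atrium, and the identical columns left 8 in the right. The fits were also tested on simulated data. P-values between genotypes measure the spread between animals, estimated over all libraries of an atrium, with 2 libraries in the WT right atrium. Those between the atria and of the interactions treat LA and RA of 1 animal as separate libraries, except where the animal was a block.

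The 33 genes, the other gene lists and the alternatives were chosen with earlier results of these data known. All 33 genes are named. Values library by library are given for those called in at least 1 comparison, and of the other lists only called genes are named, at most 4 for each list and comparison. Alternatives were DESeq2 1.42.0, RLE scaling, no filter, fewer groups in the fit, Xist as a covariate, the replicate number or animal as a block, each library left out, and, added after seeing the data, library totals without TMM scaling. LA and RA of 1 animal pair by the IDs in the titles, and their deviations from group means correlated at 0.21 to 0.41 over the 7 known pairs. Equal numbers in different genotypes are different animals (-0.11 to 0.14 over 16 pairs). Promoter windows are from RefSeq (GRCm38.p6).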

Additional observations from a re-analysis of the deposited data

How the results depend on the processing

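No called difference of the 33 genes changed sign in any alternative, and 10 of the 28 called differences were called in all of them: Cav1, Prrx1 and Phldb2 between the atria in each genotype, and Thrb in Het. The counts of called genes moved more. In KO against WT in LA (4 as reported) they were 11 without TMM scaling, 7 without the filter, 2 with only the genotypes compared and 0 with Xist as a covariate, and 0 to 6 with a library left out. In RA (1) they were 4 with DESeq2, 5 without the filter, 3 with only the genotypes compared and 5 with the identical columns as 2 libraries, and 0 to 1 with a library left out. In Het against WT in LA (5) they were 8 with DESeq2, 11 without TMM scaling, 10 without the filter, 3 with only the genotypes compared and 0 with Xist, and 1 to 8 with a library left out. The 0 with Xist in Het LA decides nothing, since Xist nearly coincides with the Het and WT labels. In RA (0) they were 1 with DESeq2, 1 without TMM scaling, 2 without the filter and 3 with the identical columns as 2. KO against Het (0) gave 2 in each atrium without the filter. Between the atria in WT (8) the identical columns as 2 libraries gave 13, and leaving out a library 3 to 9. In Het (4) DESeq2 and no filter gave 7 each, and leaving out a library 4 to 6. In KO (6) leaving out a library gave 3 to 5. The cause of these changes was not tested. The animal as a replicate block between the atria gave 15 or 12 in WT, 13 in Het and 10 in KO. The replicate number as a block between genotypes gave 3 in KO LA, 1 in KO RA, 5 in Het LA and 0 in Het RA and in KO against Het. These numbers mark different animals. Depth limits Myoz1, Slc35f1 and Neurl1a, which are under 2 CPM.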
